A study of Mus musculus with 14 samples.

Results

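Transcript levels in mouse mammary tumor cells made to express CNOT7 were set directly against those in the same cells depleted of Cnot7. Both Cnot7 manipulations thus met in 1 test. The cells were 4T1, a line established from a mammary tumor of a BALB/c mouse, and RNA was hybridized to single-color Affymetrix gene arrays. The comparison took the 3 samples with the treatment label Cnot over-expression and the 5 labelled Cnot shRNA74 (sh74, 2 samples) or Cnot shRNA75 (sh75, 3 samples), which were joined as 1 knockdown group. These were 8 of the 14 samples of the series. The over-expressing cells carried a lentiviral cDNA of human FLAG-tagged CNOT7 under a murine Pol2 promoter and were selected with blasticidin, whereas the knockdown cells carried a lentiviral short hairpin RNA against Cnot7 and were selected with puromycin. The other 6 samples entered no test of this comparison but are shown beside many of the genes, as levels or differences. They were 3 vector control and 3 shScramble samples. The former carried a non-coding insert in a blasticidin vector and the latter a scrambled hairpin and the puromycin marker. Vector and drug therefore changed together with Cnot7 from one arm to the other, and within the 8 samples they cannot be told apart. The design text speaks of biological replicates, but nothing states that each came from its own culture, and the spread behind every p-value may be partly technical.

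CNOT7 is a deadenylase, an enzyme that removes the poly(A) tail from messenger RNAs. It is 1 of the catalytic subunits of the CCR4-NOT complex, which is built on the scaffold CNOT1, and shortening of the tail by this complex is usually followed by decapping and decay of the transcript. RNA-binding proteins and adaptors of the TOB and BTG family bring the complex to particular messages. The study asked which transcripts of mammary tumor cells follow Cnot7.

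The knockdown rests on 2 hairpins, whose mature antisense strands from the study's list of constructs are shown to make plain that they share no seed. Capitals mark bases 2 to 8, the seed through which a small RNA can also repress messages it matches only in part.
shCnot7-74: tAAGTACTgcagaatagaagg
shCnot7-75: aACAAGTCtacattacaccgc
Both strands are 21 bases long. Of 1679 mature mouse microRNAs in RefSeq, 0 carried either seed. Which differences in the hairpin cells came from loss of Cnot7 was not tested.

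Over the series, array medians of the tested probe sets ranged from 6.31 to 6.38 on the log2 scale, and those of olfactory receptor genes, which mark the background, from 3.92 to 3.98. Among the defining genes of mammary epithelium, Krt8 was at 11.13 to 11.87 and Krt18 at 11.73 to 12.30 in all 14 samples. Cdh1, the gene of E-cadherin, was at 10.28 to 11.43 and Krt19 at 8.87 to 11.07. Epcam ranged from 5.98 to 10.01, with its lowest and its highest level both in sh74 samples. Immune cell markers averaged 4.87 over the 15 genes in over-expressing cells, 4.88 in knockdown cells, 4.89 in vector control cells and 4.92 in shScramble cells, beside a 90th percentile of 4.89 for olfactory receptor probe sets.

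Cnot7 itself differed strongly between the arms, and almost all of that difference lay on the knockdown side. Its log2 level was 10.64, 10.02 and 10.08 in the 3 over-expressing samples. It was 8.71 and 9.33 in the sh74 samples and 7.52, 8.51 and 8.07 in the sh75 samples. In the controls it was 10.07, 10.52 and 10.15 in vector control cells and 10.44, 10.33 and 10.20 with shScramble. Every over-expressing sample was above every knockdown sample, but the over-expressing samples lay among the controls. Means were 10.25 ± 0.34 (SD, n = 3) with over-expression and 8.43 ± 0.68 (n = 5) with knockdown, a difference of 1.82 ± 0.38 (SE), so that knockdown cells kept 28.3% of the signal of over-expressing cells. An exact two-sided permutation test (56 arrangements of the 8 samples) gave p = 0.0179, the smallest p this design allows. In the limma fit over all 21789 probe sets with 1 gene symbol, Cnot7 ranked 78 by p and did not pass adjustment (limma adjusted p = 0.342). Over-expression minus vector control was 0.00. The construct is a human cDNA, which mouse probes need not detect, so forced expression was not measured here.

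**Figure D1:**
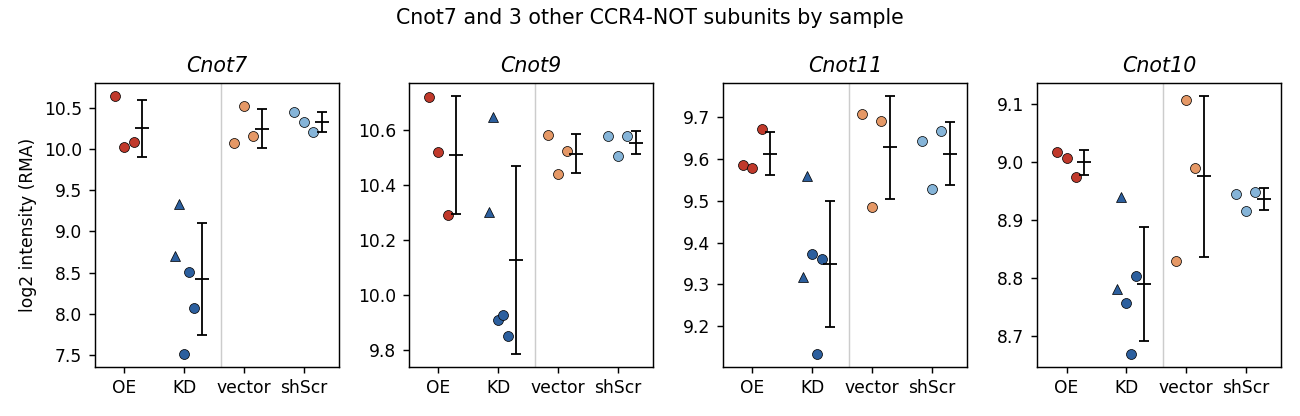
Log2 RMA intensity of Cnot7 and 3 other CCR4-NOT subunits in each sample, for over-expression (OE), knockdown (KD), vector control and shScramble. Triangles are sh74 and other points are single samples, and black bars give the mean and SD. Cnot7 is lower in all 5 knockdown samples, the over-expressing samples (10.02 to 10.64) lie among the controls, and Cnot9 is lower in the 3 sh75 samples alone.

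None of the 10 other measured CCR4-NOT subunits passed adjustment. Cnot9, which binds the scaffold and docks recruiting proteins, was at 10.72, 10.52 and 10.29 in over-expressing cells, at 10.30 and 10.65 with sh74, and at 9.91, 9.93 and 9.85 with sh75. The vector control samples were at 10.58, 10.44 and 10.52 and the shScramble samples at 10.58, 10.51 and 10.58. The 3 sh75 samples stood below all others and the sh74 samples did not, which gave a difference of 0.38 ± 0.20 (SE, limma adjusted p = 0.703). Cnot11 and Cnot10, which form a module at one end of the scaffold, were higher with over-expression by 0.26 ± 0.09 and 0.21 ± 0.07 (limma adjusted p = 0.573 and 0.536), and in both genes the over-expressing samples lay above all knockdown samples. Cnot2 was lower by 0.15 ± 0.05 (limma adjusted p = 0.584). In Cnot11, Cnot10 and Cnot2, over-expression minus vector control was -0.02, 0.02 and -0.03. In the same order, shScramble minus knockdown was 0.26, 0.15 and -0.19. The scaffold Cnot1 differed by 0.01 (95% interval -0.32 to 0.35) and Cnot8, the close paralog of Cnot7, by 0.02 (-0.15 to 0.19). The remaining subunits, Cnot3, Cnot4, Cnot6 and Cnot6l, differed by 0.14, -0.05, 0.10 and -0.18, and the 95% interval of each difference included 0.

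Among the adaptors and partners of deadenylation no gene passed adjustment. Of the 4 measured TOB and BTG genes 3 were lower with over-expression, while Tob1 differed by 0.08. Btg1 was at 10.98 against 11.30 in knockdown cells (difference -0.32 ± 0.10, SE, limma adjusted p = 0.542). List means were 8.47, 8.42 and 8.25 with over-expression, 8.24 and 8.36 with sh74 and 8.60, 8.64 and 8.62 with sh75. The sh75 samples alone thus stood above all over-expressing samples. The list's median was -0.0035 for over-expression minus vector control, -0.13 for vector control minus shScramble and -0.16 for shScramble minus knockdown. Among 29 other deadenylation and decay factors 16 were higher and 13 lower. The member with the smallest p was Pan2, a subunit of the second cytoplasmic deadenylase, at 8.26 against 8.68 in knockdown cells (difference -0.42 ± 0.11, limma adjusted p = 0.474). Of 27 RNA-binding proteins that recruit deadenylases 11 were higher and 16 lower, with a median difference of -0.05. Zfp36l2, which binds AU-rich elements, averaged 10.94 against 11.41 in knockdown cells (difference -0.47 ± 0.12, limma adjusted p = 0.431). Over these 27 genes the median was 0.03 for over-expression minus vector control, -0.10 for vector control minus shScramble and 0.07 for shScramble minus knockdown.

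Across the 21789 tested probe sets, 1 passed an adjusted p of 0.05 by limma, which is 0.00459% of those tested. It was Banp, higher with over-expression. At an unadjusted p under 0.05 there were 1684 probe sets (7.73%), 829 of them higher (3.80%) and 855 lower (3.92%), and 420 (1.93%) at an unadjusted p under 0.01. In 1144 (5.25%) the 3 over-expressing and 5 knockdown samples did not overlap, with over-expression the higher in 547 (2.51%) and the lower in 597 (2.74%). The methods' t-test called 0 after Benjamini-Hochberg adjustment. Genes named from here on, other than Banp, therefore lack a call, and their differences are given as measured values.

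Banp encodes a nuclear matrix protein and transcription factor that binds the CGCG element of CpG island promoters. Its log2 level was 9.67, 9.33 and 9.43 in over-expressing cells, against 8.08 and 8.23 with sh74 and 8.09, 8.23 and 8.38 with sh75. The vector control samples were at 9.36, 9.46 and 9.54 and the shScramble samples at 8.60, 8.63 and 8.14. The 2 blasticidin groups were thus high and both hairpin groups low, with no overlap, whether or not Cnot7 had been altered. Banp rose by 1.27 ± 0.10 (SE, limma adjusted p = 0.0266), a ratio of 2.42, but of that 0.997 was also the difference between vector control and shScramble, 0.02 lay between over-expression and vector control and 0.25 between shScramble and knockdown. The difference between the 2 control groups comes from samples that the test did not use, though the variance of its p includes all 14, and it had the smallest p of all 21789 probe sets there (limma over all 14 samples, adjusted p = 0.0733). Leaving out any 1 of the 6 control samples moved it between 0.84 and 1.08. The call was lost when any of the 8 samples other than replicate 3 of sh75 was left out (limma adjusted p up to 0.167), and the difference then lay between 1.18 and 1.35.

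To tell Cnot7 dose from vector and drug, each difference was split into 3 parts that add up to it: over-expression minus vector control (the over-expression leg), vector control minus shScramble (the control leg) and shScramble minus knockdown (the knockdown leg, in which a positive value means lower in knockdown cells). The methods name different lentiviral backbones for the control insert and for the CNOT7 cDNA, so it is unclear whether the over-expression leg compares cells with the same vector. A difference was called control-led when the control leg made at least 50% of it, and both-sided when the outer legs each made at least 25% and the control leg no more than 25% in size. Among the 1684 probe sets with an unadjusted p under 0.05 the knockdown leg made at least 50% of the difference in 959 (56.9%), the over-expression leg in 357 (21.2%) and the control leg in 466 (27.7%), and 288 (17.1%) were both-sided. Over all tested probe sets these shares were 52.7%, 40.1%, 38.2% and 5.47%. The legs use the samples of the test, so these counts describe the selected probe sets and test nothing. Without replicate 2 of the vector control, which stood apart in several genes below, 632 of the 1684 were control-led and 209 both-sided. The shares over all tested probe sets above use every sample and are not given without that replicate. Whether the counts of 632 and 209 differ from their own background therefore cannot be told.

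The control leg alone is free of those samples. It ran in the direction of the comparison in 1210 of the 1684 probe sets (71.9%), against 56.5% of all tested, and in 325 of the 420 with an unadjusted p under 0.01 (77.4%). Across all tested probe sets the 2 differences correlated with Pearson r = 0.319 and Spearman rho = 0.222, a description over 21789 probe sets that share arrays and are not independent. Where the controls differed at an unadjusted p under 0.05, 161 of the 1684 did so in the same direction (9.56%) and 15 in the opposite one, beside 527 (2.42%) and 212 of all tested. Those p-values come from the fit of all 14 samples, whose variance includes the 8 of the comparison. No probe set passed adjustment between vector control and shScramble (limma, 739 or 3.39% at an unadjusted p under 0.05), between over-expression and vector control (523 or 2.40%) or between knockdown and shScramble (1513 or 6.94%). The SD over probe sets was 0.21 for over-expression minus knockdown, 0.16 for the control leg, 0.14 for the over-expression leg and 0.20 for the knockdown leg.

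**Figure D2:**
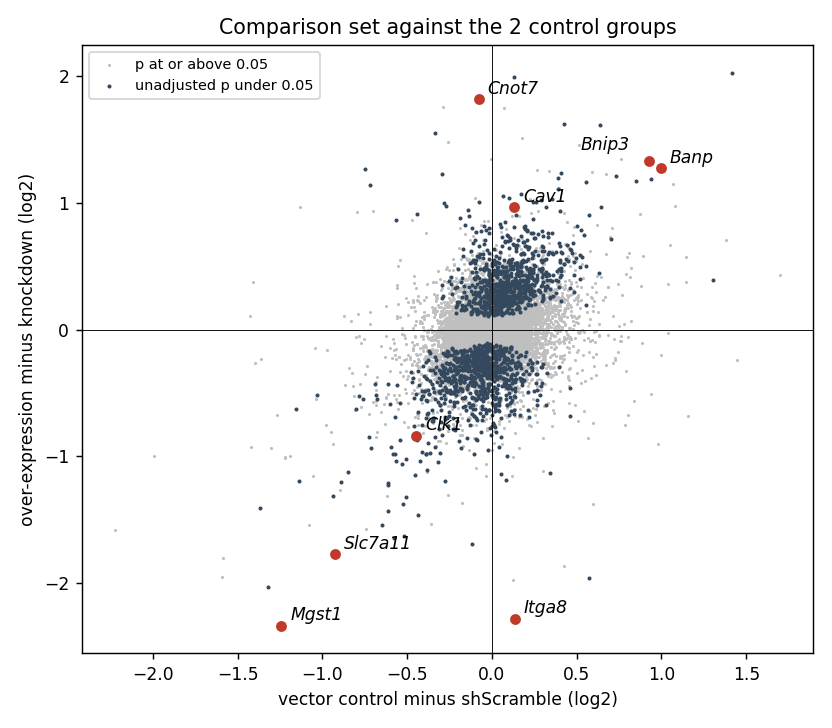
Over-expression minus knockdown (vertical, log2) plotted for each of the 21789 tested probe sets against vector control minus shScramble (horizontal, log2), which uses no sample of the comparison. Dark points have an unadjusted p under 0.05, and the cloud tilts (Pearson r = 0.319). Banp, Bnip3, Mgst1 and Slc7a11 lie away from 0 on the horizontal axis too, whereas Cnot7 and Itga8 lie near 0 on it. In Mgst1 and Slc7a11 the samples of the control groups overlap.

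The largest lower difference among the named genes was that of Mgst1, the microsomal glutathione S-transferase 1. It was at 6.94, 6.66 and 6.24 with over-expression, at 9.27 and 8.51 with sh74 and at 9.41, 9.08 and 8.48 with sh75. The controls were far apart among themselves: 5.12, 8.11 and 5.57 with the vector and 6.62, 8.24 and 7.65 with shScramble. All 3 over-expressing samples were below all 5 knockdown samples, but the controls ran from below the one to close to the other. The difference was -2.34 ± 0.26 (SE, limma adjusted p = 0.139), with an over-expression leg of 0.35, a control leg of -1.24 and a knockdown leg of -1.44. Replicate 2 of the vector control stood apart, and without it the control leg was -2.17 and the over-expression leg 1.27.

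Slc7a11, the cystine transporter that feeds glutathione synthesis, had the same layout. It was at 6.86, 7.99 and 6.90 with over-expression, against 9.12 and 8.32 with sh74 and 9.31, 9.36 and 8.997 with sh75. Vector control samples were at 6.26, 8.92 and 6.56 and shScramble samples at 7.58, 8.95 and 7.98. Over-expressing and vector control cells had the same mean (7.25 and 7.25), and the difference of -1.77 ± 0.32 (limma adjusted p = 0.303) was divided between the controls (-0.93) and the knockdown side (-0.85). Without replicate 2 of the vector control the control leg was -1.76 and the over-expression leg 0.84. The 22 measured genes of the NRF2 and glutathione list, which holds Slc7a11, were lower in 19 cases with a median difference of -0.18, and 4 had an unadjusted limma p under 0.05 (Slc7a11, Pgd, Prdx1 and Gclc). Over all tested genes 49.9% were lower and 7.90% had such a p. List means overlapped between the arms, at 9.57, 9.64 and 9.68 with over-expression, 10.01 and 9.55 with sh74 and 9.73, 10.18 and 10.02 with sh75. The median control leg of the list was -0.12 and its median over-expression leg 0.01.

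The other control-led genes differed less. Among those higher with over-expression were Wdcp, a WD-repeat gene (difference 0.68, control leg 0.40), Zdhhc9, a palmitoyltransferase (0.53, 0.29), Fam162a, a hypoxia-inducible mitochondrial gene (0.52, 0.43), Mdfic (0.43, 0.36) and Eme1, a subunit of a DNA-junction nuclease (0.40, 0.27). Among those lower were Ireb2 (-0.41, -0.24), Ino80, the ATPase of a chromatin remodeler (-0.51, -0.37), Ly96, the co-receptor of TLR4 (-0.98, -0.57), and Clk1 (-0.84, -0.45). In Mdfic the sign of the control leg depended on replicate 2 of shScramble, without which it was -0.05, while in the others named here it kept its sign without any 1 of the 6 controls. In Zdhhc9, however, the knockdown leg (0.46) was larger than the control leg with all samples too, and the over-expression leg was -0.22. Without replicate 2 of the vector control its control leg was 0.13. Of the 12 named control-led genes, Banp, Wdcp, Fam162a and Ino80 kept a control leg of at least 50% whichever 1 of the 6 controls was left out.

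A few genes had their controls between the arms. In 3 of the 21789 probe sets (0.0138%) all over-expressing samples, all 6 controls and all knockdown samples were ordered without overlap: Smim26, Bcs1l and Mcm9. Smim26, a small integral membrane protein, was at 6.55, 6.43 and 6.48 with over-expression, at 5.77 and 5.89 with sh74 and at 5.96, 5.79 and 5.91 with sh75, and the controls lay between, at 6.05 to 6.32 with the vector and 6.17 to 6.36 with shScramble. Its difference was 0.62 ± 0.06 (SE, limma adjusted p = 0.0930), with legs of 0.33, -0.12 and 0.42. In the fit of all 14 samples in 4 groups it passed (adjusted p = 0.0188).

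Bcs1l, an assembly factor of respiratory complex III that the naming rule did not pick, was at 8.84, 8.81 and 8.77 with over-expression, against 7.57 and 8.20 with sh74 and 8.16, 8.18 and 8.23 with sh75. Vector control samples were at 8.55, 8.73 and 8.61 and shScramble samples at 8.63, 8.48 and 8.49. Its difference was 0.74 ± 0.15 (limma adjusted p = 0.341), and the first sh74 sample lay well below the other knockdown samples. Mcm9, a helicase used in homologous recombination, ran the other way: 7.09, 7.23 and 7.22 with over-expression, 7.76 and 8.10 with sh74 and 8.10, 7.75 and 7.67 with sh75, with all 6 controls from 7.31 to 7.64. Its difference was -0.70 ± 0.12 (limma adjusted p = 0.278) with legs of -0.22, -0.09 and -0.38.

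Itga8, the integrin subunit that pairs with beta 1, showed the second largest lower difference of the named genes and was both-sided. It was at 7.26, 6.63 and 5.75 with over-expression, at 9.12 and 8.10 with sh74 and at 9.33, 8.78 and 8.79 with sh75. Vector control samples were at 7.03, 8.04 and 6.97 and shScramble samples at 6.06, 8.26 and 7.30. The arms did not overlap, while the controls spread over much of the range between them. The difference was -2.28 ± 0.37 (SE, limma adjusted p = 0.278), a ratio of 4.86, with legs of -0.80, 0.14 and -1.62. The sign of its control leg turned without replicate 2 of the vector control (-0.21), and without replicate 1 of shScramble the control leg was -0.44 and the knockdown leg -1.05.

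Cav1, which encodes caveolin-1, the coat protein of caveolae, was at 10.28, 9.80 and 9.79 with over-expression, against 8.96 and 9.22 with sh74 and 8.88, 8.81 and 9.08 with sh75. The vector control samples were at 10.17, 9.16 and 9.76 and the shScramble samples at 10.36, 8.92 and 9.41. The difference of 0.97 ± 0.14 (SE, limma adjusted p = 0.278) had legs of 0.26, 0.13 and 0.58. Single controls reached the level of either arm, and without replicate 2 of the vector control the over-expression leg was -0.01. The other both-sided genes were Sh3pxd2a, an invadopodia scaffold (difference 0.43), Alg10b (0.38), Spire2, an actin nucleator (0.78), and Spata5 (0.30) among the higher, and Brd9, a bromodomain subunit of a SWI/SNF complex (-0.50), Tnnt3 (-0.44), Slc35b3 (-0.62) and Tbce, a tubulin-folding cofactor (-0.75), among the lower. Few of these patterns held without single controls. Of the 12 named genes that met the both-sided definition, 5 still met it without replicate 2 of the vector control (Smim26, Brd9, Mcm9, Slc35b3 and Tbce), and Mcm9 alone met it without any 1 of the 6 controls. Without that replicate the over-expression leg was -0.05 in Sh3pxd2a, -0.03 in Alg10b, -0.18 in Spata5 and -0.06 in Tnnt3, while in Spire2 it was 0.54 beside a control leg of -0.21.

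**Figure D3:**
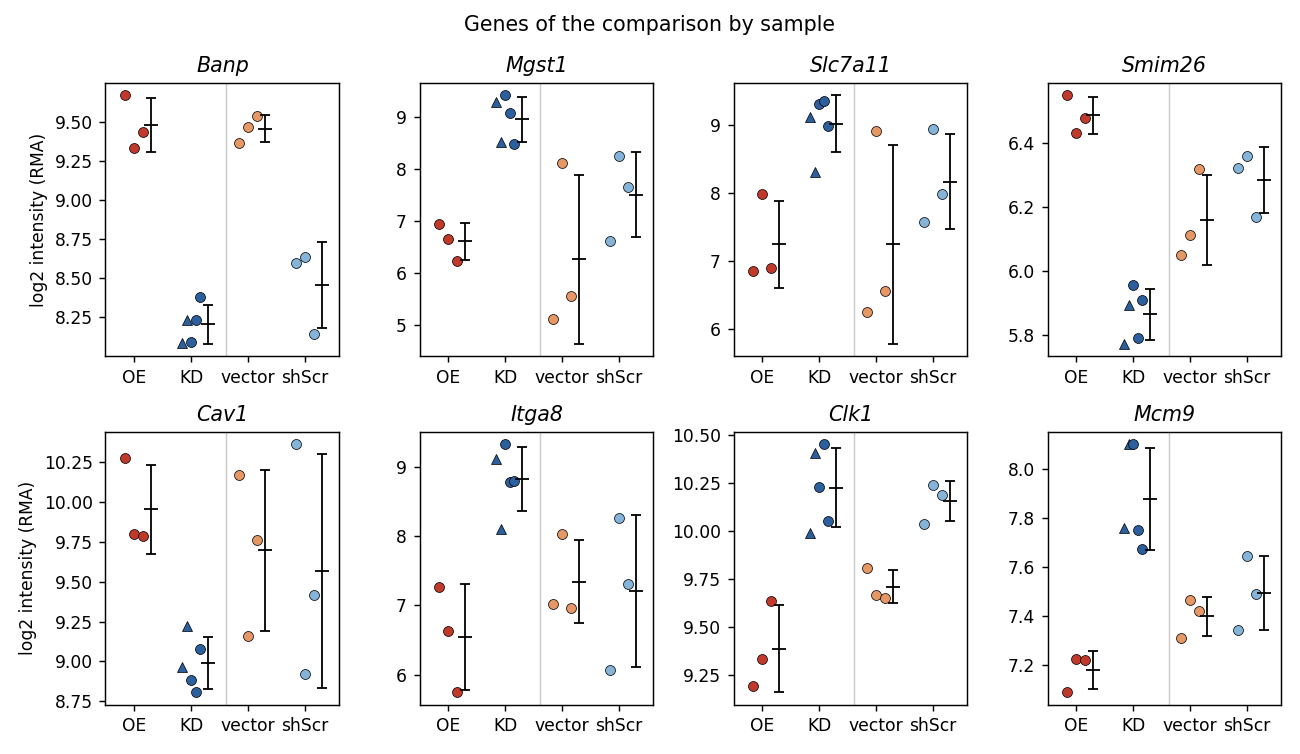
Log2 RMA intensity of 8 genes in each sample, for over-expression (OE), knockdown (KD), vector control and shScramble. Triangles are sh74, and black bars give mean and SD. Banp is high in over-expressing (9.33 to 9.67) and vector control samples (9.36 to 9.54) and low in both hairpin groups, Smim26 and Mcm9 place all controls between the arms, and replicate 2 of the vector control lies apart in Mgst1 and Slc7a11.

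Further genes of the naming rule lay mostly on 1 side. On the knockdown side were Mreg, which encodes melanoregulin (difference 0.90, knockdown leg 0.82), Uhmk1, a kinase of splicing factors (0.64, 0.68), Slc41a1, a magnesium transporter (0.88, 0.48), Gpam, the first acyltransferase of glycerolipid synthesis (0.73, 0.44), Hilpda, a lipid-droplet protein (0.45, 0.23), and, with the knockdown leg the largest but under 50%, Dusp14 (0.76, 0.37) and the kinase Tbk1 (-0.42, -0.19). On the over-expression side were Klhdc8a (difference 0.48, over-expression leg 0.45), the centrosomal gene Cep63 (-0.34, -0.30), Mkrn1 (-0.40, -0.23) and, with this leg the largest but under 50%, Spaca6 (-1.10, -0.52). Without replicate 2 of the vector control the over-expression leg of Mkrn1 was -0.09 and its control leg, -0.21, the largest, whereas the over-expression leg stayed the largest in Klhdc8a (0.30), Cep63 (-0.25) and Spaca6 (-0.84). In Spaca6 the control leg was the largest without replicate 1 (-0.52) or replicate 3 (-0.56) of the vector control. In Dusp14 the control leg was the largest without replicate 2 of the vector control (0.41) or replicate 1 of shScramble (0.37), in Gpam without replicate 1 of shScramble (0.41) and in Tbk1 without replicate 3 of shScramble (-0.21). In Cep63 the over-expressing samples were at 7.08, 7.13 and 7.09 and all other samples at 7.28 or above.

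**Figure D4:**
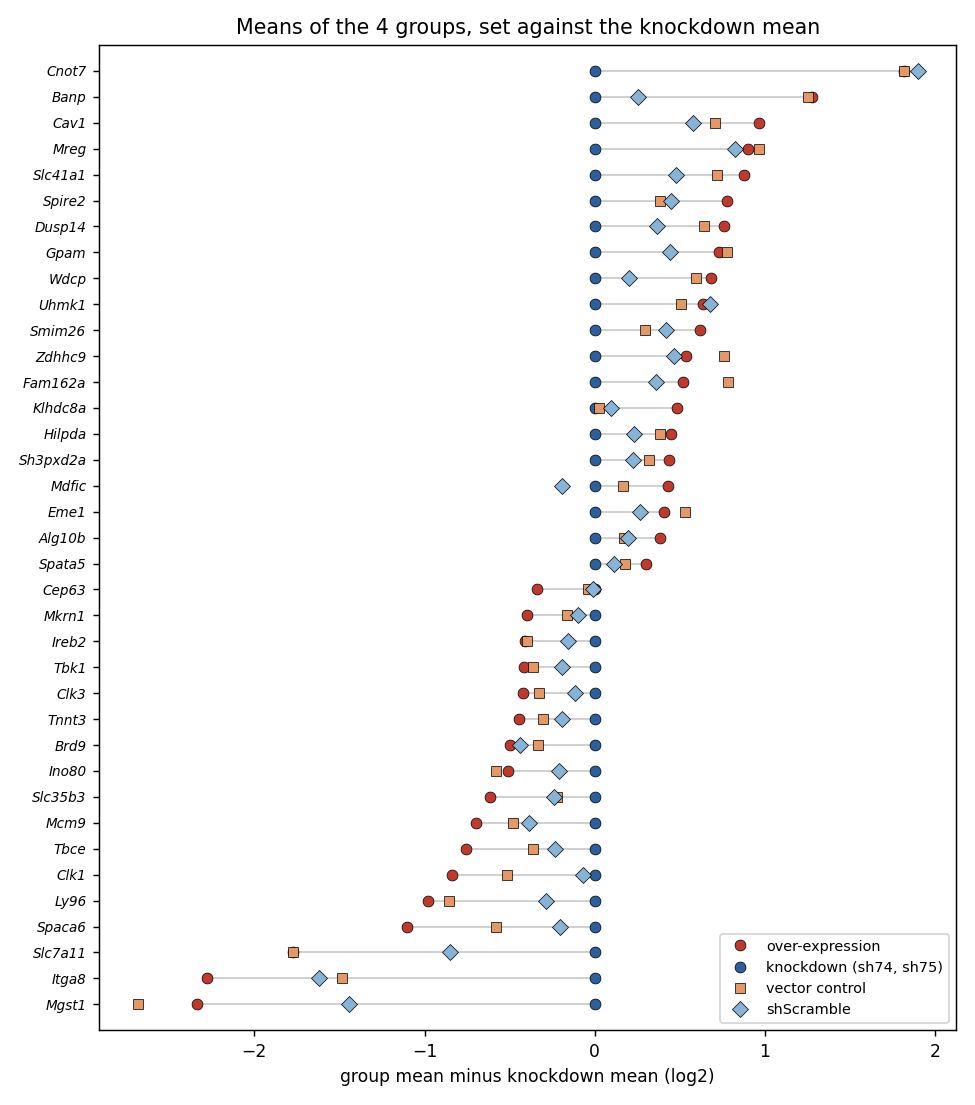
Group means of Cnot7 and the other named genes outside the CCR4-NOT complex, each minus the knockdown mean of that gene (log2), for over-expression, knockdown, vector control and shScramble. For Banp the vector control lies with over-expression and shScramble near knockdown, while for Cnot7 all 3 other groups lie 1.82 to 1.90 above knockdown.

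Kinases that phosphorylate SR splicing factors were among the lower genes. These were put together after the values of Clk1 and Clk3 had been seen, so their count supports nothing. Clk1 was at 9.19, 9.34 and 9.64 with over-expression, at 9.99 and 10.40 with sh74 and at 10.23, 10.45 and 10.05 with sh75, while vector control samples were at 9.81, 9.67 and 9.65 and shScramble samples at 10.04, 10.24 and 10.19. Its difference was -0.84 ± 0.14 (SE, limma adjusted p = 0.278), with legs of -0.32, -0.45 and -0.07. Thus the shScramble samples lay with the knockdown samples and the vector control samples just above the over-expressing ones.

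Clk4 was at 8.16, 7.83 and 8.45 with over-expression, against 8.82 and 8.92 with sh74 and 8.75, 8.83 and 8.91 with sh75. Its difference was -0.70 ± 0.13 (limma adjusted p = 0.303), divided over all 3 legs (-0.18, -0.23 and -0.29). Clk3 differed by -0.42 ± 0.07 (limma adjusted p = 0.278) and Srsf5, an SR protein, by -0.37 ± 0.07 (limma adjusted p = 0.320), again with no overlap between the arms. Their legs were -0.09, -0.21 and -0.12 in Clk3 and -0.12, -0.18 and -0.07 in Srsf5. Of 17 measured CLK, SRPK, SR and TRA2 genes 9 were lower and 8 higher, with a median difference of -0.02, and those with an unadjusted p under 0.05 were these 4 and Tra2b, which was higher by 0.19.

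Apart from the splicing genes above, 35 gene lists were looked at, not all of them described. Some showed where smaller differences ran together. Over all 19938 tested genes 50.1% were higher, the median difference was 0.00 and 7.90% had an unadjusted limma p under 0.05. No list member passed adjustment. Ribosome biogenesis genes were higher with over-expression in 26 of 28 cases, with a median of 0.27, and 2 had an unadjusted p under 0.05: Wdr12, which acts in maturation of the large subunit (10.04 against 9.43 in knockdown cells, limma adjusted p = 0.602), and Rrp9 (8.89 against 8.42 in knockdown cells). The median legs were 0.05 for over-expression, -0.08 for the controls and 0.28 for knockdown. List means overlapped between the arms, at 10.35, 10.44 and 10.14 with over-expression, 9.82 and 10.31 with sh74 and 10.10, 9.71 and 10.33 with sh75, and the first sh74 and second sh75 samples were the lowest of the series. Mitochondrial import and ribosome genes were higher in 32 of 34 cases, with a median of 0.22 and 6 at an unadjusted p under 0.05, and a median knockdown leg of 0.19. The same pair of knockdown samples was lowest there too, at 8.78 and 8.85, against 9.08 to 9.19 in the other 3. Over-expressing samples were at 9.29, 9.29 and 9.11, so the list means of the arms overlapped here as well.

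Mrpl37, a protein of the large mitochondrial ribosomal subunit, was at 9.34, 9.34 and 9.28 with over-expression, against 8.84 and 9.14 with sh74 and 8.86, 8.85 and 9.04 with sh75. Vector control samples were at 9.51, 9.13 and 9.42 and shScramble samples at 9.55, 9.07 and 9.19. Its difference was 0.38 ± 0.08 (SE, limma adjusted p = 0.355), with no overlap between the arms. Proteasome genes were higher in 26 of 31 cases with a median of 0.07 (0.13 without replicate 3 of sh75), and 0 of them had an unadjusted p under 0.05. Mitotic genes were higher in 25 of 32 cases with a median of 0.11 (0.06 without replicate 3 of over-expression or replicate 2 of sh75), and 5 had an unadjusted p under 0.05, among them the kinases Plk1 (11.43 against 11.18 in knockdown cells, limma adjusted p = 0.553) and Aurka (9.99 against 9.73 in knockdown cells). DNA replication genes went the other way, with 14 of 46 higher, 32 lower and a median of -0.03. Leaving out 1 of the 8 samples moved that median between -0.09 and 0.02.

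The hypoxia and glycolysis list pointed higher (25 of 33, median 0.14) with median legs of -0.16 for over-expression, 0.15 for the controls and 0.14 for knockdown. Replicate 2 of the vector control had the highest list mean of the series (10.04), and without it the first 2 legs were -0.05 and 0.09. Its member with the smallest p was Bnip3, a mitophagy receptor induced by low oxygen. Bnip3 was at 9.53, 9.66 and 10.12 with over-expression, at 8.18 and 7.88 with sh74 and at 8.40, 9.18 and 8.55 with sh75, while vector control samples were at 9.92, 10.41 and 10.23 and shScramble samples at 9.13, 8.96 and 9.68. The difference was 1.33 ± 0.28 (SE, limma adjusted p = 0.352), yet over-expressing cells were lower than vector control cells by 0.41 on average and the control leg was 0.93.

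Lists that pointed lower were led by the Ras and MAPK feedback genes, lower in 14 of 19 cases with a median of -0.35 and 6 at an unadjusted p under 0.05. Dusp6, the phosphatase that switches off ERK, was at 9.83, 10.44 and 10.41 with over-expression, at 11.17 and 10.48 with sh74 and at 10.70, 11.08 and 11.18 with sh75, while vector control samples were at 9.12, 10.50 and 10.08 and shScramble samples at 10.03, 10.53 and 10.16. Its difference was -0.69 ± 0.21 (SE, limma adjusted p = 0.508), and the gap between the nearest samples of the arms was small. The list's median was -0.29 in the knockdown leg and -0.13 in the control leg but 0.17 in the over-expression leg, that is, above the control of the same drug marker in both Cnot7 arms. Replicate 1 of over-expression had a list mean of 9.05 and the other 2 were at 9.53 and 9.52, among the knockdown samples (9.42 to 9.77). Without replicate 1 of over-expression the median difference was -0.21 and the over-expression leg 0.32. That leg was 0.04 without replicate 1 of the vector control and 0.07 without replicate 3 of over-expression. Without replicate 1 of shScramble the knockdown leg was -0.12 and the control leg -0.32. Rasa1, which encodes a Ras GTPase-activating protein, was at 9.98 against 10.64 in knockdown cells (limma adjusted p = 0.491), and Dusp4 at 9.89 against 10.41 in knockdown cells. For Dusp4 the control leg (-0.78) was larger than the difference itself (-0.52).

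Cholesterol synthesis genes were lower in 18 of 20 cases with a median of -0.27, yet only Stard4 had an unadjusted p under 0.05 (8.51 against 9.16 in knockdown cells, limma adjusted p = 0.578). The list's legs were -0.35 for over-expression, -0.33 for the controls and 0.38 for knockdown, so these genes were on balance below the control of the same drug marker in both arms. Replicate 3 of over-expression stood apart, at a list mean of 9.04 against 9.69 and 9.65 in the other 2, and without it the over-expression leg was -0.11. The median difference was then 0.01, with 10 genes higher and 10 lower. It was -0.40 without replicate 1 of over-expression, -0.11 without replicate 2 of sh74 and -0.17 without replicate 1 of sh75. Interferon response genes were lower in 30 of 43 cases with a median of -0.09, and 7 were lower and 2 higher at an unadjusted p under 0.05, among them Stat2 (7.53 against 8.10 in knockdown cells, limma adjusted p = 0.491) and Parp9 (7.62 against 8.04 in knockdown cells, limma adjusted p = 0.494). Without replicate 1 of over-expression that median was -0.02, with 21 genes higher and 22 lower, while it was -0.18 without replicate 3 of over-expression and -0.15 without replicate 2 of sh75. Replicate 2 of the vector control stood at a list mean of 7.97, against 6.82 and 6.73 in the other 2, and decided the signs: the median over-expression and control legs were -0.14 and 0.20 with it and 0.25 and -0.13 without it, beside a knockdown leg of -0.24. TGF-beta ligands, receptors and targets were lower in 16 of 23 cases with a median of -0.20, and Tgfbr1, the type I receptor, was at 9.12 against 9.64 in knockdown cells (limma adjusted p = 0.546). That median was -0.06 without replicate 1 of over-expression, -0.11 without replicate 2 of sh75 and -0.13 without replicate 1 of sh74. The list's median legs were 0.06 for over-expression, -0.08 for the controls and -0.17 for knockdown.

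**Figure D5:**
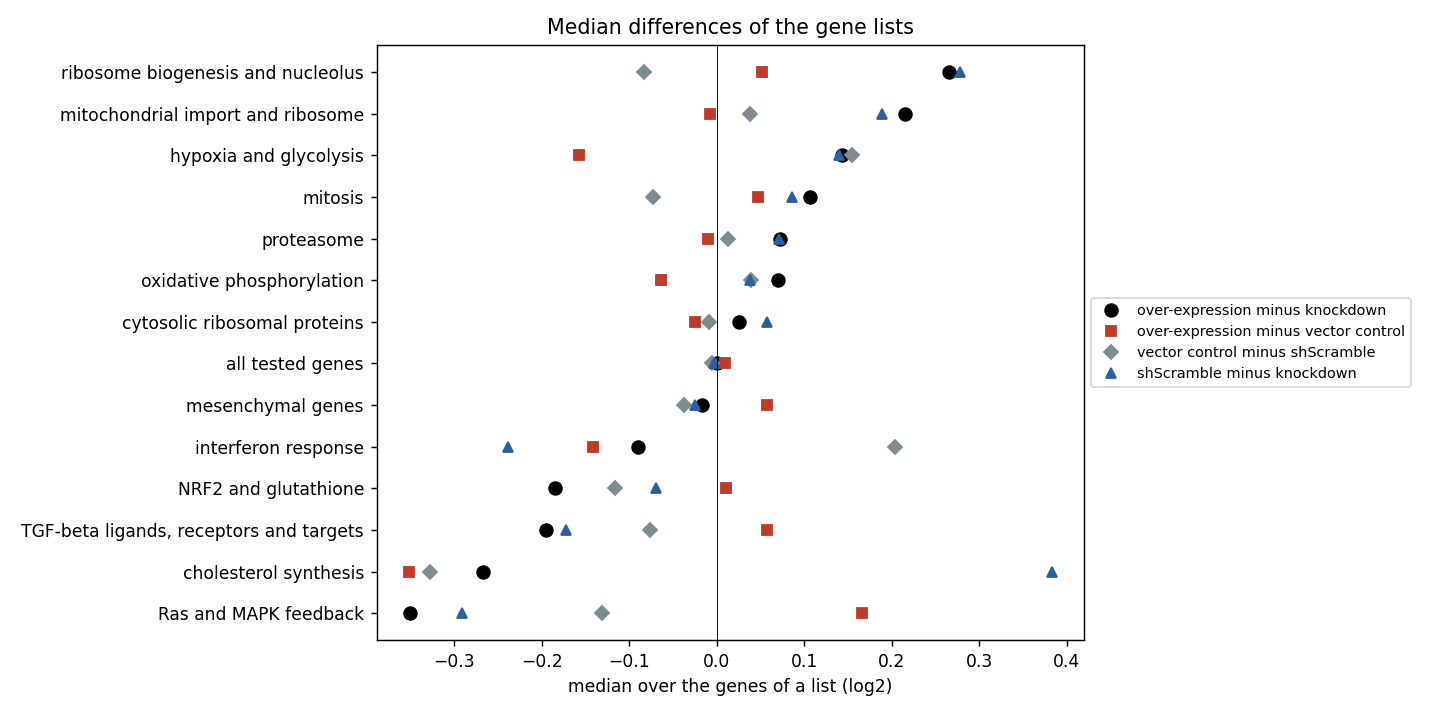
Median log2 difference over the genes of 13 lists and over all tested genes, for over-expression minus knockdown and for its 3 legs. Ribosome biogenesis (0.27) and mitochondrial import (0.22) lie to the right, with the knockdown leg the largest of the 3, and for cholesterol synthesis the knockdown leg (0.38) opposes the other 2.

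Epithelial and mesenchymal genes did not separate the arms. Of 34 epithelial genes 21 were higher, of 33 mesenchymal genes 14, and 0 genes of either list had an unadjusted limma p under 0.05. The mean of the mesenchymal genes minus that of the epithelial genes, each gene centered over the 14 samples, was 0.12 ± 0.64 (SD, n = 3) with over-expression and 0.21 ± 0.84 (n = 5) with knockdown, and the 2 sh74 samples held both extremes of the series, 1.05 and -0.86. Controls averaged -0.20 ± 0.45 with the vector and -0.27 ± 0.72 with shScramble (n = 3 each). With this score as a covariate Banp remained called (limma adjusted p = 0.0403) and Tspan1, which encodes a tetraspanin, was called in addition.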

How the data were processed

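RNA of 14 samples of 4T1 cells was profiled on Affymetrix Mouse Gene 1.0 ST arrays. The authors corrected, normalized and summarized the intensities by RMA in the R package oligo, versions not given in the sources used here, and deposited log2 values, which were used without further normalization. Of 35556 probe sets, 21789 paired with exactly 1 gene symbol in the platform annotation and were tested (19938 genes), 1621 paired with several and 12146 with none, and 21698 matched the RefSeq gene table. Groups came from the treatment labels. Over-expression (3) was tested against sh74 and sh75 together (5) by limma 3.58.1 in R 4.3.3 (lmFit, eBayes, 6 residual and 2.01 prior degrees of freedom), two-sided, with Benjamini-Hochberg adjustment. Control contrasts came from a limma fit of all 14 samples in 4 groups (10 residual degrees of freedom). Where a gene had more than 1 probe set, the brightest stood for it.

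Named genes were Cnot7 and the CCR4-NOT subunits, calls filled to 12 per direction by the smallest p among probe sets with no overlap and a higher group mean of at least 6, up to 6 both-sided and 6 control-led genes per direction with an unadjusted p under 0.01, and up to 4 members of a described list. The comparison, the lists and these rules were chosen with earlier results of these data known. The limma step was tested on simulated data. Alternatives covered the samples and groups in the fit, each hairpin alone, the methods' t-test, the variance prior, dim and unnamed probe sets, normalization, array weights, a score covariate, a block on title numbers and leaving out each sample. Leaving out each control for the legs of genes and lists was chosen after seeing the data. The number of arrays limited the precision.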

Additional observations from a re-analysis of the deposited data

Results flagged for a closer look

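The 5 knockdown samples were checked for a sample standing apart in 47 genes, by the gap of the extreme sample to its nearest neighbor over the range of the group. In 2 genes the gap share was above Dixon's 95% critical value for 5 samples (0.71), which chance alone exceeds in about 1 of 20 groups. Cnot6l was at 9.93 in replicate 1 of sh74, while the other 4 knockdown samples were at 9.74 to 9.78 (gap share 0.783). Ly96 was at 9.24 in replicate 3 of sh75, while the others were at 9.71 to 9.76 (gap share 0.908), so the difference of Ly96 from over-expressing cells was smallest in that sample.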

How the results depend on the processing

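The count of 1 call became 0 with the hairpins as separate groups, against sh75 alone, against sh74 alone, with the methods' t-test, with an intensity trend and in both fits with a replicate block. It was 3 with all 14 samples in 4 groups (Banp, Smim26, Wdcp), 9 with all 14 in 5 groups (these, Cnot7, Chordc1, Dennd10, Hipk3, Naa60 and Pfkl) and 2 with the score covariate. Leaving out 1 sample gave 0 to 3. Over 24 alternatives Banp stayed at 1.18 to 1.35 (limma adjusted p 0.00307 to 0.382). Cnot7 stayed at 1.23 to 2.21 and passed only with all 14 samples in 5 groups (1.72, adjusted p = 0.0331). No difference between the control groups was called under any of the 7 alternatives run for it. Both-sided probe sets numbered 0 among calls and 288 at an unadjusted p under 0.05, and leaving out 1 of the 14 samples gave 209 to 326.

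Over-expression and sh75 titles share suffixes, but same-suffix samples did not all deviate together (correlations 0.36, -0.10 and 0.02, and 0.47 and 0.09 for other pairs of the same number), so the replicate block pairs only numbers. It gave 2.21 for Cnot7 and 0 calls. As sh74 has no partner, sh75 alone without a block gave the same 2.21 and 0.

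Signs turned in small differences only. Cnot1 was -0.0148 with separate hairpins in 8 or 14 samples, -0.153 against sh74 alone, -0.0079 with array weights and -0.0037 with the covariate. Cnot4 was 0.0372 and Cnot8 -0.0281 against sh75 alone and with either replicate block. Cnot6 was -0.170 against sh74 alone. Leaving out 1 sample gave -0.150 to 0.125 for Cnot1, -0.133 to 0.0414 for Cnot4, -0.369 to 0.0191 for Cnot6l and -0.0354 to 0.0622 for Cnot8. The cause was not tested.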
